A study of Mus musculus with 69 samples.

Results

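Gene expression after Cas9 editing of Ctsd, the gene of the lysosomal protease cathepsin D, was compared with editing of Rosa26 in mouse bone marrow-derived macrophages. All libraries labelled with the Ctsd target were taken, 10 of the 69 libraries, and set against all 10 libraries labelled with the Rosa26 target. Both sets hold 5 libraries from day 4 and 5 from day 13 after editing. The labels write these times in hours and the series' design in days, and days are used here. The cells came from wild-type mice, with the marrow of 6 mice pooled for each replicate. They were grown in M-CSF, the macrophage growth factor, at 50 ng/mL, harvested on day 7, frozen, thawed, seeded at 75k cells a well and treated with Cas9 ribonucleoprotein. The Ctsd and Rosa26 groups of a day differ by the targeted gene, and Rosa26, the editing control, was targeted with Cas9 as well. No selection of clones is described, and the share of edited alleles was not among the sources used here. Libraries were 3' tags with unique molecular identifiers, read as 75 bp single ends. Such tags need not fall with a small insertion or deletion, and in bulk libraries fewer cells with a message cannot be told apart from less message per cell.

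Cathepsin D is an aspartic protease that is made as an inactive precursor, sorted to the lysosome and activated by cleavage in its acidic lumen. There it degrades proteins delivered by endocytosis and autophagy and helps to process other lysosomal proteins. Inherited loss of the enzyme causes a severe neuronal ceroid lipofuscinosis, a lysosomal storage disease, and macrophages, as degradative cells, are rich in it.

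The 20 libraries held 2194566 to 3975434 counts, with RNA integrity numbers of 9.4 to 9.9 and 1 number missing. Of the 20, 4 carry a Low-input label, namely Ctsd day 13 replicates 1, 3 and 4 and Rosa26 day 13 replicate 5, and the others are Regular, so at day 13 the protocol is unevenly divided between the targets. Summed macrophage identity genes, with Csf1r, Adgre1 and Lyz2 among them, lay at 14956 to 19361 CPM (counts scaled to the library total) in Ctsd libraries and 15680 to 20224 CPM in Rosa26 libraries. The summed level of 11 stromal markers (collagens, Sparc, Fn1 and others) was 8.05 to 31.8 CPM in Ctsd libraries. In Rosa26 libraries it was 8.72 to 47.4 CPM apart from day 13 replicates 2 and 5, which had 177 and 467 CPM. Results that rest on those replicates are given with and without them. Whether a replicate number marks the same pool of mice across groups is not stated. The p-values measure the spread between libraries, estimated in fits of all 69 libraries and not of these 20 alone.

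Little changed with the loss of Ctsd message. With day and protocol as terms and 1 common Ctsd effect, 23 of 12008 genes tested were called (0.192%), of which 1 was higher in Ctsd cells (0.00833%) and 22 were lower (0.183%). At an unadjusted p under 0.05 there were 854 genes. An equal-weight mean of the effects at both days gave 12 calls (0.0999%), 1 higher (0.00833%) and 11 lower (0.0916%). Besides Ctsd itself, the 22 other genes fall into 3 kinds: 5 low-level genes whose level followed that of Ctsd, 11 matrix and other stromal-type genes, and 6 genes that belong to neither. At day 4 alone 15 genes were called (0.125%, with 6 or 0.05% higher and 9 or 0.075% lower), and at day 13 alone 24 (0.2%, with 1 or 0.00833% higher and 23 or 0.192% lower). The difference between the days was called for 1 gene (0.00833%), Ly6a. Fold changes below are log2 values ± SE of Ctsd over Rosa26 cells with the protocol difference removed, and a call is an adjusted p under 0.05 over all tested genes (edgeR's quasi-likelihood test, Benjamini-Hochberg).

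**Figure D1:**
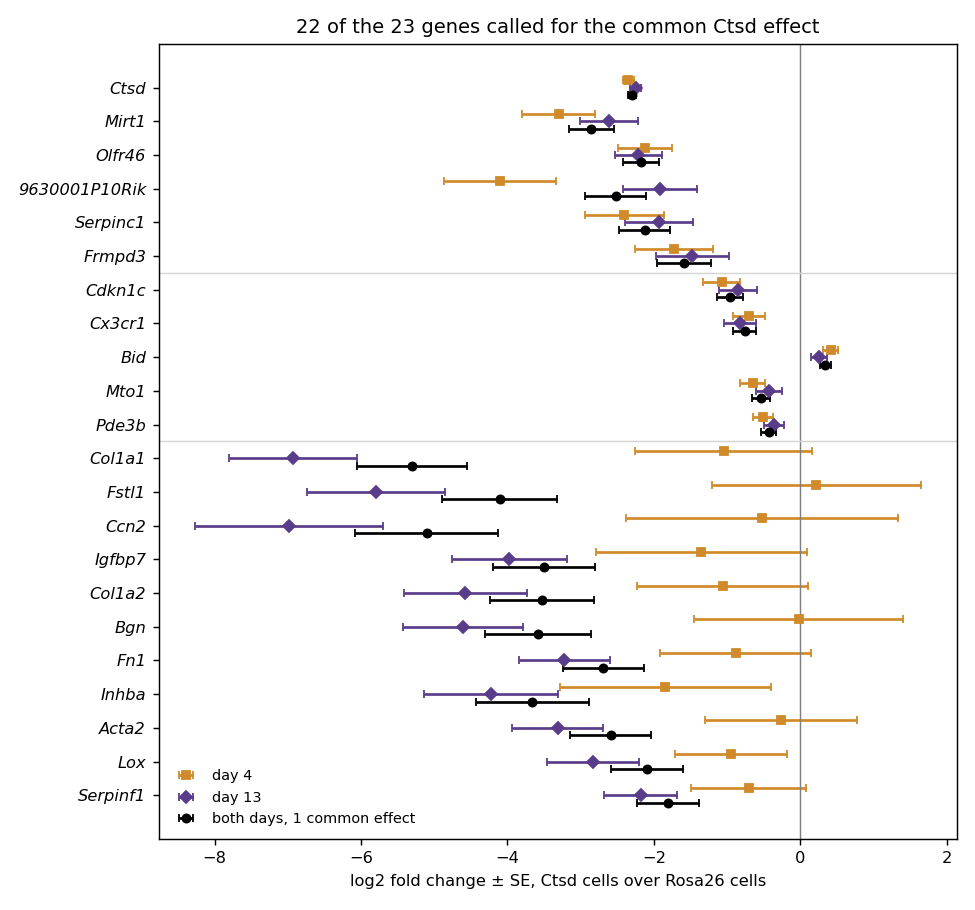
Log2 fold change ± SE of Ctsd over Rosa26 cells (horizontal axis) for 22 of the 23 genes called for the common effect, at day 4 (squares), at day 13 (diamonds) and over both days (circles), from edgeR. The upper 11 genes lie on the same side of 0 on both days, and for the lower 11, the stromal-type genes, the values at day 13 lie further from 0 than those at day 4, which have wide errors.

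Ctsd (ENSMUSG00000007891.17) was read first, as a check of the labels. Its level was 834, 831, 687, 715 and 817 CPM in Ctsd cells at day 4, against 3757, 4084, 4022, 4159 and 4104 CPM in Rosa26 cells. At day 13 it was 1258, 914, 1588, 1266 and 997 CPM in Ctsd cells, against 4478, 5058, 4330, 4468 and 6485 CPM in Rosa26 cells. Every Ctsd library was below every Rosa26 library of the same day. The highest value of either target at day 13 was in a Low-input library, replicate 3 for Ctsd and replicate 5 for Rosa26. The common fold change was -2.30 ± 0.05 on the log2 scale (adjusted p = 8.47e-47, edgeR), which leaves 20.3% of the Rosa26 level, with -2.35 ± 0.07 at day 4 and -2.25 ± 0.08 at day 13. The difference between the days was 0.10 ± 0.10 (adjusted p = 0.819). In the 12 other groups of the series the mean Ctsd level was 3907 to 9042 CPM, so both Ctsd groups, with 777 ± 70.3 CPM at day 4 and 1205 ± 265 CPM at day 13 (SD, n = 5 each), were the lowest of the 14.

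**Figure D2:**
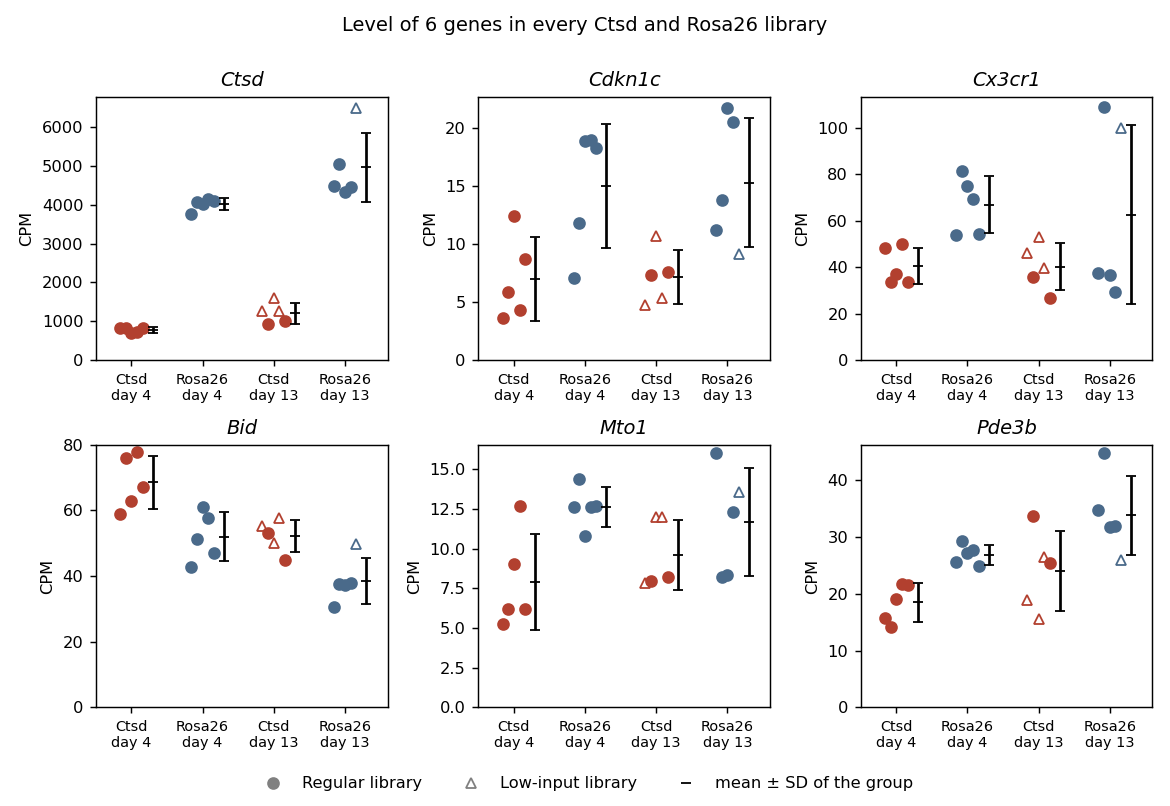
CPM of Ctsd and of 5 other genes called for the common effect (vertical axes, from 0) in each of the 20 libraries, by target and day; circles are Regular and triangles Low-input libraries, and bars are the group mean ± SD (n = 5). The targets separate fully on both days for Ctsd, with 687 to 1588 CPM in Ctsd cells and 3757 to 6485 CPM in Rosa26 cells, whereas for each of the 5 other genes they overlap on at least 1 day.

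No other cathepsin or cathepsin inhibitor passed the test. Of 23 genes on that list, 17 were tested, and apart from Ctsd their common changes lay between -0.27 and 0.09. Cathepsin B (Ctsb), a cysteine protease and the most abundant of them, had 4363 to 4843 CPM in Ctsd cells and 4199 to 4705 CPM in Rosa26 cells at day 4, with overlapping ranges. Its common change was 0.04 ± 0.04 (adjusted p = 0.896). Cathepsin L (Ctsl), which like cathepsin B shares many substrates with cathepsin D, changed by 0.02 ± 0.06 (adjusted p = 0.976). Cathepsin C (Ctsc), the activator of granule serine proteases, had the largest difference of the others, -0.27 ± 0.09 (adjusted p = 0.426). Napsa, the other aspartic protease of the list, was at 0.06 ± 0.13 (adjusted p = 0.962).

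The rest of the lysosome gave no call for the common effect. Of 45 tested lysosomal glycosidases, lipases and sulfatases, 0 were called by edgeR, 0 by DESeq2 and 6 had an unadjusted p under 0.05, with a median change of 0 beside a median of 0 over all genes. None of 36 membrane and sorting genes (median 0.02), 18 V-ATPase subunits (median 0.09), 18 genes of TFEB and nutrient sensing (median 0.07) or 29 autophagy genes (median 0.04) was called by edgeR or DESeq2. At an unadjusted p under 0.05 these lists held 3, 4, 2 and 2 genes. Of the V-ATPase subunits, the proton pump that acidifies the lumen, 15 of 18 had a positive value, against 50.1% of all genes, and the largest was Atp6v1g1 at 0.19 ± 0.07 (adjusted p = 0.421). Under 13 other settings 13 to 16 of the 18 were above 0. Among 13 genes of the neuronal ceroid lipofuscinoses only Ctsd was called. The others ranged from -0.10 for Kctd7 to 0.10 for Cln8, and progranulin (Grn) was at -0.02 ± 0.10. By day, 2 hydrolases of this group were called at day 4 alone. Fuca2, a fucosidase, had 63.1, 75.6, 71.6, 75.2 and 63.8 CPM in Ctsd cells and 54.9, 47.6, 50.5, 51.6 and 50.5 CPM in Rosa26 cells, with no overlap, and rose by 0.47 ± 0.10 (adjusted p = 0.0221). Smpdl3a, a phosphodiesterase related to acid sphingomyelinase and a target of the sterol receptor LXR, had 181 to 242 CPM in Ctsd cells and 148 to 180 CPM in Rosa26 cells, and rose by 0.37 ± 0.08 (adjusted p = 0.0394). At day 13 the 2 stood at 0.04 ± 0.10 and 0.01 ± 0.08, and the difference between the days was not called for either. Without single day 4 libraries the adjusted p reached 0.124 for Fuca2 and 0.439 for Smpdl3a.

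A set of 5 genes followed the Ctsd message itself. These were Mirt1, a long non-coding RNA, 9630001P10Rik, Olfr46, an olfactory receptor gene, Serpinc1, the antithrombin gene of liver, and Frmpd3, a gene of a FERM and PDZ domain protein. All had low levels. Mirt1 had 0.33, 1.66, 0, 0.31 and 0.27 CPM in Ctsd cells at day 4, against 7.33, 4.01, 3.97, 5.28 and 3.91 CPM in Rosa26 cells. At day 13 it had 1.05, 0.954, 1.95, 0.946 and 0.877 CPM in Ctsd cells and 7.83, 6.35, 4, 5.47 and 7.84 CPM in Rosa26 cells. The targets did not overlap on either day. With protocol-corrected levels the targets did not overlap for 222 genes at day 4 (1.85% of those tested), 215 at day 13 (1.79%) and 9 on both days (0.075%). The common change was -2.86 ± 0.31 (adjusted p = 6.94e-10), which leaves 13.8%.

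Olfr46 had 0 to 1.89 CPM in Ctsd cells and 4.55 to 6.19 CPM in Rosa26 cells at day 4, and 1.17 to 3.9 CPM in Ctsd cells and 4.33 to 9.93 CPM in Rosa26 cells at day 13, again with no overlap. It changed by -2.18 ± 0.24 (adjusted p = 1.08e-09). Serpinc1 (-2.12 ± 0.35, adjusted p = 0.000132), 9630001P10Rik (-2.52 ± 0.42, adjusted p = 0.000151) and Frmpd3 (-1.59 ± 0.36, adjusted p = 0.0263) rested on fewer counts. Over the 10 Ctsd libraries they had 21, 11 and 15 counts in all, against 101, 63 and 48 counts in the 10 Rosa26 libraries. Leaving out each of the 20 libraries in turn kept the call of 4 of the 5, and Frmpd3 lost its call when any 1 of 8 libraries was left out (adjusted p up to 0.126). Those fits kept the libraries of the other targets. With the 20 libraries alone, 10 of the 23 called genes could be tested. Mirt1 and Olfr46 were called there, and Serpinc1, 9630001P10Rik and Frmpd3 were too low to be tested.

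The levels of these genes were also set against the summed Ctsd counts of the same group. Per 1000 Ctsd counts, Olfr46 had 1.51 counts in Ctsd cells at day 4 and 1.60 at day 13, and 1.16 to 1.94 in the 12 other groups. Serpinc1 had 0.588 and 0.701 in Ctsd cells on the 2 days and 0.431 to 0.699 in the others, and Frmpd3 had 0.504 and 0.450 in Ctsd cells and 0.292 to 0.607 in the others. Mirt1 had 0.588 and 0.951 in Ctsd cells, the first below its range of 0.821 to 1.54 in the 12 other groups. 9630001P10Rik had 0.084 in Ctsd cells at day 4, from 1 count in all, and 0.501 at day 13, on either side of its range of 0.302 to 0.428. The same genes were highest where Ctsd was highest, in the Grn and Pik3c3 groups at day 13, with Mirt1 at 13.6 and 11.2 CPM where Ctsd had 9000 and 9042 CPM. In the transcripts of the reference annotation (GENCODE M21) none of the 5 shares a run of 31 bases, or of 18 bases, with a Ctsd transcript on either strand. Why they moved with Ctsd was not tested.

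**Figure D3:**
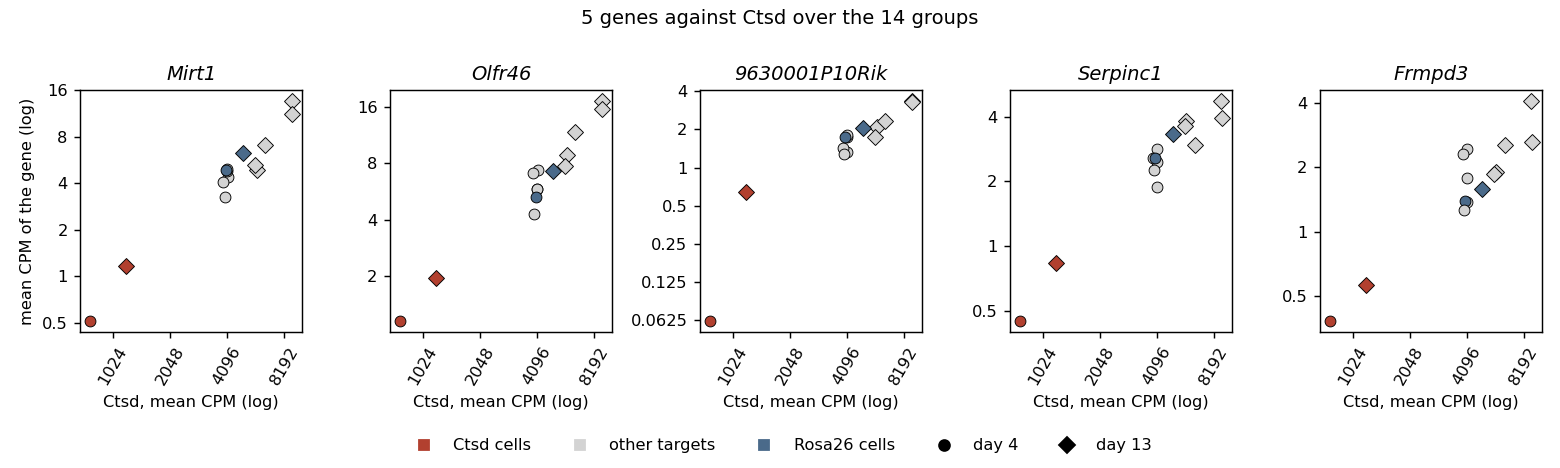
Mean CPM of Mirt1, Olfr46, 9630001P10Rik, Serpinc1 and Frmpd3 (vertical axes, log scale) against mean CPM of Ctsd (horizontal axes, log scale) in the 14 groups of target and day; circles are day 4, diamonds day 13. The Ctsd groups sit at the lower left in every panel, at 777 and 1205 CPM of Ctsd, and the 12 other groups between 3907 and 9042 CPM.

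The neighbourhood of Ctsd on its chromosome held 1 other called gene. Of the 20 tested genes on each side, in the order of the reference annotation, the median change was 0.05, with 25 of 40 above 0, and only Cdkn1c was called. Among the 20 tested genes around the Rosa26 locus, targeted in the controls, edgeR called 0, 1 had an unadjusted p under 0.05, and DESeq2 called none of them (median 0.01). Cdkn1c, the gene of the cyclin-dependent kinase inhibitor p57 and an imprinted gene, is the eighth tested gene after Ctsd. It had 3.63, 5.82, 12.4, 4.33 and 8.65 CPM in Ctsd cells at day 4, against 7.04, 11.8, 18.8, 18.9 and 18.2 CPM in Rosa26 cells. Its day 13 values were 4.72, 7.31, 10.7, 5.36 and 7.6 CPM in Ctsd cells and 11.2, 13.8, 21.7, 20.5 and 9.15 CPM in Rosa26 cells. On each day a library of one target overlapped the other, and the change was -0.96 ± 0.18 (adjusted p = 0.0022), or 51.3% of the Rosa26 level. The call held without each of the 20 libraries (adjusted p at most 0.00889). It was lost when only the 20 libraries were fitted (adjusted p = 0.115). Kcnq1ot1, the antisense RNA of the same imprinted domain and the gene just before it in that order, was at -0.30 ± 0.15 (adjusted p = 0.707).

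A pair of genes that lie against Ctsd were too low to be tested. Ifitm10, a member of the interferon-induced transmembrane family, had 11 counts summed over the Ctsd libraries at day 4 and 22 at day 13, against 6 and 2 counts in Rosa26 libraries. Counts were present in 5 of 5 Ctsd libraries at day 13, with 1 to 6 each, and in 2 of 5 Rosa26 libraries. In a fit with no filter the common change was 1.85 ± 0.56 (adjusted p = 0.221), which is not a call. Gm49369, an annotated read-through of the locus, had 0 counts in all 10 Ctsd libraries, which allows up to 0.0938 CPM from 3 counts over the group, and 32 counts (0.957 CPM) over the Rosa26 libraries. With the pooled Rosa26 level taken as exact and no protocol term, this is at least 10.2-fold lower in Ctsd cells. The Low-input Rosa26 library held 1 of those counts, and 3 of the 10 Ctsd libraries are Low-input. The same unfiltered fit, which has a protocol term, called Gm49369 for the common effect (-4.36 ± 0.8, adjusted p = 4.74e-05). It was also called at day 13 (adjusted p = 0.0404), and not at day 4 (adjusted p = 0.0717). Its transcripts share 641 runs of 31 bases with those of Ctsd, and reads of the 2 cannot be told apart there.

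The 6 genes of the last kind changed by less than 2-fold, and 5 of them, with Cdkn1c above, are described. Cx3cr1, the fractalkine receptor of monocytes and resident macrophages, had 48.2, 33.7, 37.1, 49.8 and 33.8 CPM in Ctsd cells at day 4, against 54, 81.6, 75.1, 69.4 and 54.4 CPM in Rosa26 cells, with no overlap. Day 13 values were 45.9, 35.9, 53, 39.7 and 26.6 CPM in Ctsd cells and 37.6, 109, 36.7, 29.2 and 99.9 CPM in Rosa26 cells, where the high values are replicates 2 and 5. The common change was -0.76 ± 0.16 (adjusted p = 0.0056). Without those replicates it was -0.47 (adjusted p = 0.489).

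Bid, a pro-apoptotic BH3 protein of the Bcl-2 family, was the only gene that rose. It had 58.8, 76, 62.9, 77.7 and 67.3 CPM in Ctsd cells at day 4 and 42.8, 51.4, 61.1, 57.6 and 46.9 CPM in Rosa26 cells. At day 13 it had 55.3, 53.1, 50.1, 57.7 and 45 CPM in Ctsd cells and 30.6, 37.6, 37.3, 37.8 and 49.9 CPM in Rosa26 cells. The ranges overlapped narrowly on both days, and the change was 0.34 ± 0.08 (adjusted p = 0.0191), or 127% of the Rosa26 level. Bid is a known substrate of cathepsins at the protein level, which these libraries do not measure. Its call was lost when any 1 of 7 libraries was left out (adjusted p up to 0.0975).

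Mto1, a mitochondrial tRNA modification enzyme, had 5.28 to 12.7 CPM in Ctsd cells and 10.8 to 14.4 CPM in Rosa26 cells at day 4, and fell by 0.54 ± 0.12 in log2 over both days (adjusted p = 0.0263). Pde3b, a cyclic nucleotide phosphodiesterase, had 14.1 to 21.7 CPM in Ctsd cells and 24.8 to 29.2 CPM in Rosa26 cells at day 4, with no overlap, and fell by 0.43 ± 0.10 (adjusted p = 0.0274). The call of Mto1 was lost when any 1 of 7 libraries was left out and that of Pde3b for any 1 of 8.

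The stromal-type genes were lower in Ctsd cells, and their calls rested on 2 of the 10 control libraries. They comprise the collagen chains Col1a1 and Col1a2, fibronectin (Fn1), smooth muscle actin (Acta2), biglycan (Bgn), lysyl oxidase (Lox), Fstl1, Ccn2, Igfbp7, Inhba and Serpinf1. Such genes are commonly high in fibroblasts and related cells but need not be confined to them, and Fn1 was present in every Ctsd and Rosa26 library. Col1a1 had 0.262, 0, 0.325, 0.315 and 0 CPM in Ctsd cells at day 13, against 0.373, 9.26, 0, 0.456 and 69 CPM in Rosa26 cells. Col1a2 had 0 to 1.27 CPM in Ctsd cells and 0.373, 26.7, 1, 0.456 and 52.8 CPM in Rosa26 cells. Fn1 had 4.1 to 7.61 CPM in Ctsd cells and 2.98, 77.3, 6.33, 8.66 and 125 CPM in Rosa26 cells. For these 3 genes Rosa26 replicates 2 and 5 stood above all other libraries and the remaining 3 overlapped the Ctsd libraries. Inhba, a subunit of activin, did not overlap at day 13, with 0 to 0.292 CPM in Ctsd cells and 0.373, 6.09, 0.667, 0.456 and 4.71 CPM in Rosa26 cells, where the 3 low values rest on 1 or 2 counts each. At day 4 no stromal-type gene was called, and Col1a1 had 0 to 0.619 CPM in Ctsd cells and 0.264 to 1.61 CPM in Rosa26 cells. The common changes were -5.30 ± 0.75 for Col1a1 (adjusted p = 3.48e-06), -3.53 ± 0.71 for Col1a2 (adjusted p = 0.00526) and -2.69 ± 0.55 for Fn1 (adjusted p = 0.0056). With replicates 2 and 5 left out, 3 of the 11 were too low to be tested, none of the 8 others was called, and Bgn stood at 0.40 (adjusted p = 0.987). The 8 genes then called were Ctsd, the 5 genes that followed it, Cdkn1c and Mto1. Sparc, a matrix glycoprotein, did not overlap at day 13 either, with 6.56, 18.4, 3.58, 3.47 and 16.4 CPM in Ctsd cells and 20.9, 50.8, 21.3, 28.3 and 137 CPM in Rosa26 cells. Its change at day 13 was -2.46 (adjusted p = 0.00248), and -0.65 (adjusted p = 0.723) without replicates 2 and 5. At day 13, 5 of 5 tested stromal markers were called as lower, Sparc among them, and without those replicates the genes called at day 13 were Ctsd, Olfr46 and Mirt1.

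**Figure D4:**
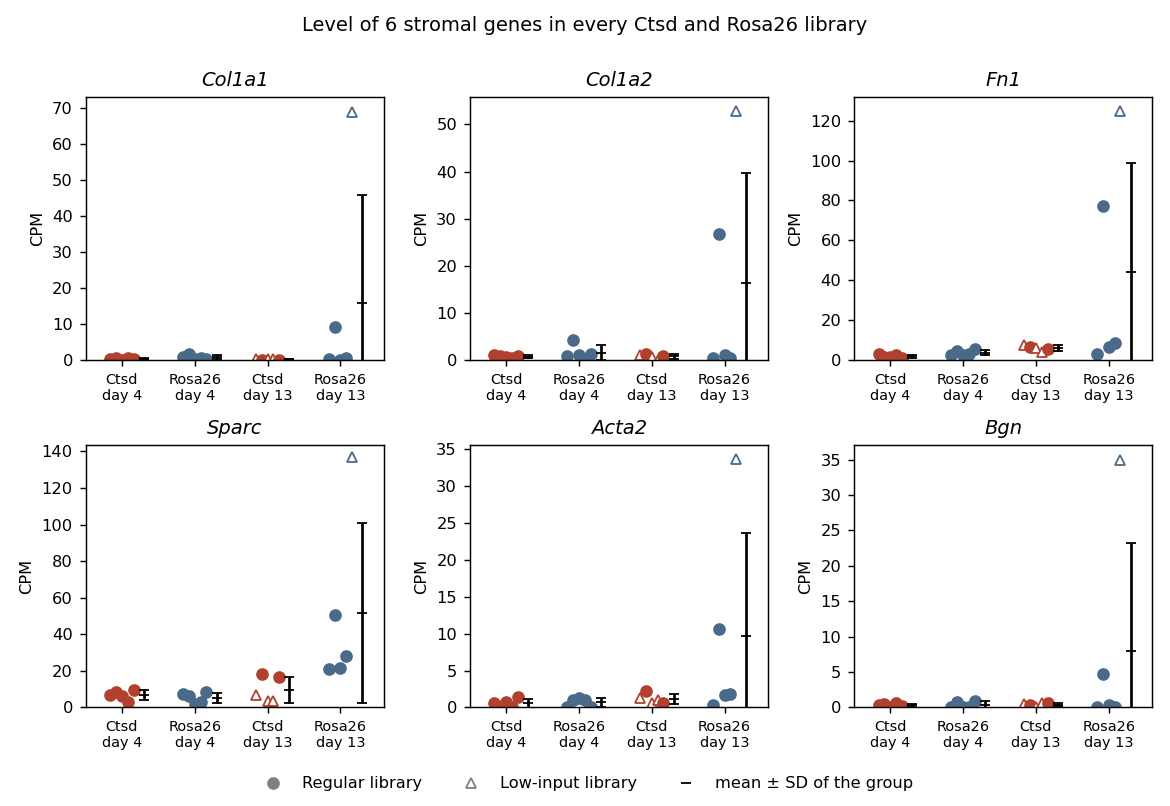
CPM of Col1a1, Col1a2, Fn1, Sparc, Acta2 and Bgn (vertical axes, from 0) in each of the 20 libraries by target and day; circles are Regular and triangles Low-input libraries, and bars are the group mean ± SD (n = 5), drawn only above 0. Rosa26 day 13 replicates 2 and 5 hold the highest values in every panel, for Fn1 77.3 and 125 CPM, with all Ctsd libraries at or below 7.61 CPM.

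Markers of other cells were also set side by side. At day 13 summed erythroid markers were 3.47 to 16.7 CPM in Ctsd libraries and 6.8 to 27.8 CPM in Rosa26 libraries, with Alas2 and Car1 at 0 in Ctsd cells and Car1 among those at 0 in Rosa26 cells. Summed neutrophil markers were 50.9 to 104 CPM in Ctsd and 39.6 to 68.5 CPM in Rosa26 libraries, with Elane and Ly6g at 0 in both. Summed brain genes, a list that macrophages express in part, were 209 to 441 CPM in Ctsd and 204 to 604 CPM in Rosa26 libraries. These sums are not corrected for protocol. In each target at day 13 the Low-input libraries had the highest neutrophil sums and the lowest erythroid and brain sums. At day 4 summed osteoclast markers were 182 to 220 CPM in Ctsd and 219 to 259 CPM in Rosa26 libraries, with Calcr and Oscar at 0 in Ctsd cells and no marker at 0 in Rosa26 cells. All 6 tested osteoclast markers were below 0 at that day (median -0.44), 3 had an unadjusted p under 0.05, and edgeR and DESeq2 called 0. At day 13 the sums were 435 to 520 CPM in Ctsd and 360 to 460 CPM in Rosa26 libraries. Summed lymphocyte markers at day 4 were 39.1 to 49.5 CPM in Ctsd and 42.7 to 70.4 CPM in Rosa26 libraries, with Nkg7 and Trbc2 at 0 in both and Cd8a and Ncr1 at 0 in Ctsd cells. No tested member of these lists was called for the common effect. Their part in the results was not tested, apart from the fit with the brain level as a term, in which 22 of the 23 genes were called, and the fit with the stromal level as a term, in which 8 were.

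Calls were made for further genes at a single day. Of the 14 genes called at day 4 besides Ctsd, 8 had the same sign at day 13 and 3 were called there. Of the 100 genes with the smallest p at day 4 besides Ctsd, 50% had the same sign at day 13, and of the 100 at day 13, 57% had the same sign at day 4. Over all genes the share was 48%. At day 4, Tmem176a and Tmem176b, neighbouring genes of related membrane proteins, were lower. Tmem176a had 98.1, 107, 114, 101 and 141 CPM in Ctsd cells and 167, 173, 185, 191 and 195 CPM in Rosa26 cells, with no overlap (-0.68 ± 0.14, adjusted p = 0.0096). Tmem176b had 120 to 158 CPM in Ctsd cells and 187 to 259 CPM in Rosa26 cells (-0.66 ± 0.14, adjusted p = 0.0237). The call of Tmem176a was lost when either of 2 libraries was left out (adjusted p up to 0.0586) and that of Tmem176b for any 1 of 5 (up to 0.127). At day 13 the pair overlapped between targets, at -0.00 ± 0.14 each.

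Several surface and sensor genes were higher at day 4. Ms4a6d, a tetraspanning protein of macrophages, had 158, 165, 136, 147 and 127 CPM in Ctsd cells and 89.5, 115, 103, 105 and 94.1 CPM in Rosa26 cells, with no overlap (0.55 ± 0.11, adjusted p = 0.0096). Mgl2, a C-type lectin of alternatively activated macrophages, had 3.52 to 7.89 CPM in Ctsd cells and 1.47 to 3.02 CPM in Rosa26 cells (1.27 ± 0.30, adjusted p = 0.0442). Ddx41, a DEAD-box helicase that senses DNA, had 16.4 to 23.4 CPM in Ctsd cells and 11.3 to 15.3 CPM in Rosa26 cells (0.68 ± 0.16, adjusted p = 0.0433). None of these was called at day 13. The call of Mgl2 was lost when any 1 of 12 libraries was left out (adjusted p up to 0.307), that of Ddx41 for any 1 of 7 (up to 0.176) and that of Ms4a6d for either of 2 (up to 0.124). Gpr107 and the small nuclear RNA Rn7sk were called as lower at day 4. Rn7sk had 34.7 to 51.9 CPM in Ctsd cells and 43.4 to 123 CPM in Rosa26 cells, which overlap (-0.88 ± 0.20, adjusted p = 0.0411). Its call was lost when any 1 of 8 libraries was left out (adjusted p up to 0.357). Gpr107 had 49.9 to 67.1 CPM in Ctsd cells, and in Rosa26 cells it had 424 CPM in replicate 1 and 61.2 to 66.6 CPM in the other 4. Without Rosa26 replicate 1 its change was -0.11 (adjusted p = 0.842).

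At day 13, Eif4g3, a translation initiation scaffold, had 21, 47.4, 20.8, 32.2 and 69 CPM in Ctsd cells and 71.2, 78.1, 82.3, 88.4 and 46.5 CPM in Rosa26 cells (-0.68 ± 0.15, adjusted p = 0.0223). The low values of both targets are the Low-input libraries. Emsy, a chromatin regulator, and Washc2, a subunit of the endosomal WASH complex, were also lower (-0.67 ± 0.15, adjusted p = 0.0223, and -0.44 ± 0.10, adjusted p = 0.0457). Ahsa1, an activator of the Hsp90 chaperone, was the only gene that rose at day 13 (0.38 ± 0.09, adjusted p = 0.0486). It had 552, 319, 604, 481 and 281 CPM in Ctsd cells and 220, 265, 234, 238 and 402 CPM in Rosa26 cells, the Low-input libraries being the highest of each target. These calls were lost when any 1 of 6 libraries was left out for Eif4g3 (adjusted p up to 0.273), of 5 for Emsy (up to 0.174), of 9 for Washc2 (up to 0.303) and of 12 for Ahsa1 (up to 0.369). In Regular libraries alone Ctsd and Olfr46 were the genes called at day 13. Ly6a, the gene of the stem cell antigen Sca-1, had 1.98, 6.65, 4.35, 8.36 and 7.57 CPM in Ctsd cells at day 4 and 2.93, 2.68, 1.32, 3.52 and 2.93 CPM in Rosa26 cells. By day 13 Ly6a had 0.525, 0.954, 0.976, 0 and 0 CPM in Ctsd cells and 2.24, 1.06, 1.33, 1.82 and 17.8 CPM in Rosa26 cells. Its difference between the days was -4.69 ± 0.83 (adjusted p = 0.00436), and without Rosa26 day 13 replicate 5 it was -2.76 (adjusted p = 0.362).

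Most interferon-stimulated genes had values of opposite sign on the 2 days, and edgeR called none of them on either day or for the difference with the count filter in use. With no count filter it called 6 at day 4, 2 at day 13 and 6 for the difference, and at most 1 in each under the other settings tried. Of 42 tested members of that list, 38 had a positive value at day 4 (median 0.31) and 4 at day 13 (median -0.36), beside medians of 0.001 over all genes on both days. The difference, day 13 minus day 4, had a median of -0.79 and was positive for 2 of 42, beside -0.004 for all genes. The lowest adjusted p of the difference was 0.172. At an unadjusted p under 0.05 there were 16 of these genes at day 4, 13 at day 13 and 27 for the difference, and DESeq2 called 0 in each. For the common effect, which averages over the days, 25 of 42 were positive (median 0.04). The 2 days share no libraries, but these genes are co-regulated, so their number is not a number of independent observations, and no test of the list was made. Over the 20 fits that leave out 1 library, the median stayed between 0.28 and 0.34 at day 4, between -0.44 and -0.31 at day 13 and between -0.84 and -0.71 for the difference.

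Isg15, a ubiquitin-like protein and a classical interferon target, had 75.6, 99.3, 68.6, 89.1 and 76 CPM in Ctsd cells at day 4, against 39.3, 55.7, 52.3, 75 and 59.6 CPM in Rosa26 cells. By day 13 Isg15 had 18.6, 21.9, 14.3, 21.5 and 14.9 CPM in Ctsd cells and 30.9, 23.8, 26.3, 23.7 and 22.5 CPM in Rosa26 cells. The targets overlapped at day 4 and did not at day 13. Its changes were 0.55 (adjusted p = 0.635) and -0.58 (adjusted p = 0.522), which are not calls.

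The p200 family, DNA sensors encoded by the Ifi200 gene cluster together with Aim2, had the same order of medians. All 11 tested members were positive at day 4 (median 0.44) and 1 of 11 at day 13 (median -0.57). Ifi205 was the only one called, at day 4, and the call was lost when any 1 of 6 libraries was left out (adjusted p up to 0.255). With no count filter 3 members were called at day 4, 1 at day 13 and 5 for the difference, whereas the stricter count filter or no protocol term left 0 called at day 4. Ifi205 had 4.95, 8.31, 6.36, 3.1 and 4.33 CPM in Ctsd cells and 2.05, 1.61, 1.06, 2.52 and 1.3 CPM in Rosa26 cells at day 4, which do not overlap (1.63 ± 0.37, adjusted p = 0.0394). At day 13 all its libraries were between 0.292 and 2.28 CPM. Mndal, an abundant member, had 170, 196, 186, 177 and 178 CPM in Ctsd cells at day 4 and 122, 145, 139, 136 and 138 CPM in Rosa26 cells, with no overlap. At day 13 it had 39.6, 80.1, 19.2, 32.5 and 74.3 CPM in Ctsd cells and 135, 104, 106, 85.2 and 38.2 CPM in Rosa26 cells, where the Low-input libraries are the lowest of each target. In Regular libraries alone the medians of the family were 0.43 at day 4 and -0.63 at day 13, and those of the interferon list 0.30 and -0.38. The difference between the days for Mndal was -0.90 (adjusted p = 0.172).

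**Figure D5:**
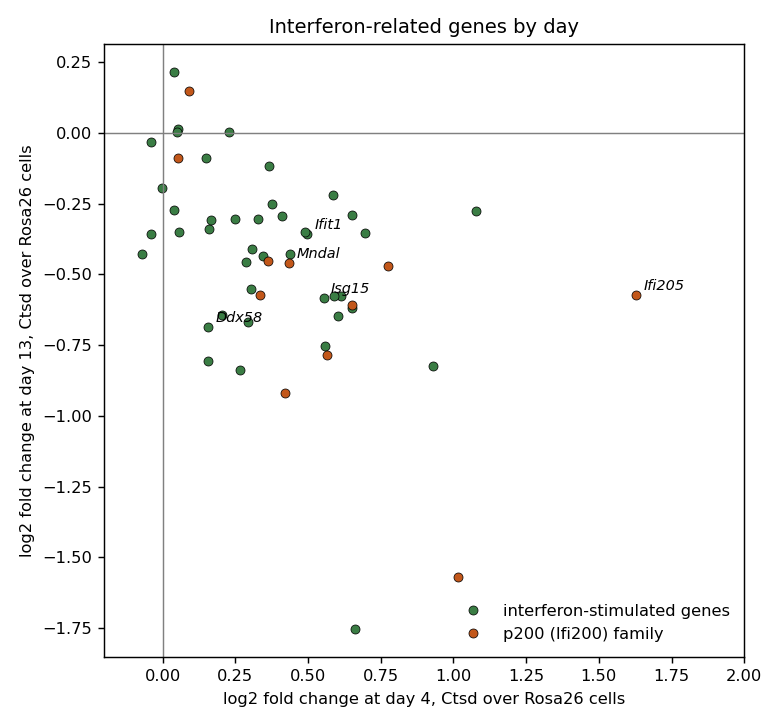
Log2 fold change of Ctsd over Rosa26 cells at day 4 (horizontal axis) and at day 13 (vertical axis) for 42 interferon-stimulated genes and 11 genes of the p200 family, from edgeR. Most points lie at the lower right, positive at day 4 and negative at day 13, with medians of 0.31 and -0.36 for the interferon-stimulated genes and 0.44 and -0.57 for the p200 family.

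Promoters of Ifi205 and Isg15 are shown since they are the called p200 gene and a member described above, and hold the letters that interferon-regulated transcription factors are known to bind (GAAANNGAAA, on either strand, in capitals, runs that overlap joined). Both are from RefSeq (GRCm38.p6, another build than that of the counts), 250 bases before to 50 bases after the start, written 5' to 3' on the gene's strand. Ifi205 lies at chr1:174031706-174032005 and Isg15 at chr4:156200769-156201068, both on the minus strand.
Ifi205: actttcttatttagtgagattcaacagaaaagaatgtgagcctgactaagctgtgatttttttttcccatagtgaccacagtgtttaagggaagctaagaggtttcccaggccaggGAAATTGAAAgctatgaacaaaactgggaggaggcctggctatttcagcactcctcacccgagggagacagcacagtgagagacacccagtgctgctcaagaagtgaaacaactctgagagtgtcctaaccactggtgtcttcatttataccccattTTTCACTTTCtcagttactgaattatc
Isg15: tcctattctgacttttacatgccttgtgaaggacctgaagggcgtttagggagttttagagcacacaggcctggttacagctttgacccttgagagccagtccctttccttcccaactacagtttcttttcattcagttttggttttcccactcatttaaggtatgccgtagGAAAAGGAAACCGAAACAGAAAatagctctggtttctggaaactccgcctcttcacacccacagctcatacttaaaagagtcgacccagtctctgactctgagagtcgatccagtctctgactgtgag
The letters occur in 3.49% of all 27025 promoters of that length, in 21 of the 32 found for the interferon list (65.6%) and in 7 of the 10 found for the p200 family (70.0%). A match is a description of the sequence and not evidence of binding in these cells.

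Among the other lists no further gene was called for the common effect by the main edgeR fit or by DESeq2. MHC class II genes had a median of -0.34 with 1 of 8 tested members above 0 and 3 at an unadjusted p under 0.05. The invariant chain Cd74 was at -0.42 ± 0.18 (adjusted p = 0.608) and the class II chain H2-Ab1 at -0.49 ± 0.19 (adjusted p = 0.519). LXR targets had a median of -0.10, where Apoe, the lipid carrier, stood at -0.46 ± 0.12 (adjusted p = 0.121). Of the 16 tested LXR targets edgeR called 1 at day 4 and DESeq2 called 2. At day 4 Apoe had 641, 473, 763, 574 and 835 CPM in Ctsd cells and 1035, 911, 1225, 1188 and 989 CPM in Rosa26 cells, with no overlap, and at day 13 the targets overlapped. Targets of p53 had a median of 0.15, with 18 of 23 above 0, and the 20 NRF2 targets, 18 unfolded protein response genes and 28 integrated stress response genes had medians of -0.02, 0.01 and 0.05. The 23 tested sterol genes had a median of 0.06, and the 34 cell cycle genes a median of 0.08, with Cdkn1c as the only call. Among 23 genes of lipid-associated macrophages, the disease-linked state marked by Trem2, Gpnmb and Spp1, Ctsd itself was the only call (median 0.05). Of these 23, 16 were above 0 and 7, Ctsd included, had an unadjusted p under 0.05. At day 4 edgeR called 1 of them, Ctsd, and DESeq2 called 2.

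Cells edited at other lysosomal genes gave a comparison without the Rosa26 libraries. Averaged over the days, Ctsd cells differed from Npc1 cells in 47 genes (0.391%, with 11 or 0.0916% higher and 36 or 0.3% lower), from Pik3c3 cells in 1001 genes (8.34%, with 447 or 3.72% higher and 554 or 4.61% lower) and from Grn cells in 1385 genes (11.5%, with 661 or 5.5% higher and 724 or 6.03% lower). These comparisons share the Ctsd libraries with each other and with the calls by which the genes below were chosen. A repeated direction in them is therefore not an independent result. All 5 genes that followed Ctsd were lower in Ctsd cells in each of them, with Olfr46 at -2.42, -2.74 and -2.80 against Npc1, Pik3c3 and Grn cells and Mirt1 at -2.96, -3.16 and -3.46. Cdkn1c was lower in each too, at -0.83 (adjusted p = 0.0197), -3.14 (adjusted p = 8.73e-24) and -2.72 (adjusted p = 1.52e-21). At day 13 Cdkn1c had 7.15 ± 2.35 CPM in Ctsd cells, beside 291 ± 66.5 CPM in Pik3c3 cells, 134 ± 45.3 CPM in Grn cells, 16.1 ± 5.9 CPM in Npc1 cells and 15.3 ± 5.59 CPM in Rosa26 cells (SD, n = 5 each), so its level in Pik3c3 and Grn cells was well above that in Rosa26 cells. The Ctsd groups were not the lowest, with 6.96 ± 3.59 CPM in Ctsd cells and 5.34 ± 0.791 CPM in Trem2 cells at day 4, and 3.78 ± 1.6 CPM in Trem2 cells at day 13 (SD, n = 5 each), a difference that was not tested. Mto1 was not called against Npc1, Pik3c3 or Grn cells (-0.18, -0.13 and -0.06, adjusted p = 0.579, 0.656 and 0.844). Pde3b was not called against Npc1 cells (-0.06, adjusted p = 0.877) or Pik3c3 cells (0.26, adjusted p = 0.114) and was higher than in Grn cells (0.81, adjusted p = 4.69e-08). Bid was not called against Npc1 cells (-0.01, adjusted p = 0.981) or Pik3c3 cells (-0.04, adjusted p = 0.827) and was lower than in Grn cells (-0.44, adjusted p = 7.03e-06). Cx3cr1 stood at 0.32 against Npc1 cells (adjusted p = 0.427), at -1.43 against Pik3c3 cells (adjusted p = 5.43e-11) and at 1.41 against Grn cells (adjusted p = 1.25e-08). None of the 11 stromal-type genes was called in any of the 3, where Col1a1 stood at -0.17, -1.33 and -1.03.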

How the data were processed

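Deposited estimated counts per gene (3' tags, GRCm39) were made by the authors with Salmon, per the submitters' processing notes. No version was stated. Of the values above 0, 31.2% were not whole (tolerance 1e-09), and every value was rounded to the nearest whole number before testing. All 69 libraries entered edgeR 4.0.16 quasi-likelihood fits in R 4.3.3 (TMM scaling, filterByExpr by group, 12008 of 56980 genes tested). The fit of the common effect had a Rosa26 level per day, 1 Ctsd effect over both days, a mean for every other target and day, and a term for library protocol. A second fit with a mean for each of the 14 groups and the protocol term gave the effects by day and their difference. Tests were two-sided with Benjamini-Hochberg adjustment across all 12008 genes, and the threshold for a call was an adjusted p of 0.05. The fits were tested on simulated data. CPM is the rounded count scaled to the library total, with no protocol correction, whereas fold changes have the protocol difference removed. SEs were derived from the change and its F statistic. The members and the gene lists were chosen with earlier results of these data known. Named genes are Ctsd, called genes with a mean over 5 CPM by size or by p (up to 10 each), called list members, up to 5 genes called for the difference between days and up to 5 called on a single day. The other named genes were chosen after their values were seen, and some genes, 1 of the 23 called among them, are not reported here. Alternatives were another scaling, no or a stricter count filter, DESeq2 1.42.0, no protocol term, a replicate block, subsets of libraries, marker levels as terms and leaving out each library. Every pair of libraries within a group differed by more than sampling noise (chi-square per degree of freedom at least 1.689). Depth sets the precision of the low genes: at these totals a level under 1 CPM rests on at most 3 counts a library.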

Additional observations from a re-analysis of the deposited data

Results flagged for a closer look

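A library was looked for that stood apart from the other 4 of its group in the genes named in the text. Of 160 groups of 5 libraries considered, 20 held one. A chance rate cannot be set beside this, since genes were named for being called and several groups rest on low counts. For Ccn2 in Ctsd cells at day 13 all values were equal, so none could stand apart. Rosa26 at day 13 held 9 of the 20, and all 9 were replicate 5, a Low-input library. Some of these genes, such as Col1a1 and Sparc, had calls that were lost without that replicate. The 9 are therefore not independent of how the genes were chosen. That replicate had 69 CPM of Col1a1, 25.1 CPM of Fstl1, 17.3 CPM of Igfbp7, 35 CPM of Bgn, 12 CPM of Serpinf1, 22.5 CPM of Mgp and 137 CPM of Sparc, each above the other 4 Rosa26 libraries. It also had 17.8 CPM of Ly6a and 402 CPM of Ahsa1.

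In Rosa26 cells at day 4, replicate 1 had 424 CPM of Gpr107, 72.8 CPM of Eif4g3 and 35.5 CPM of Emsy, each above the other 4 libraries, and replicate 2 had 4.28 CPM of Col1a2. In Ctsd cells at day 13, replicate 3, a Low-input library, had 1.95 CPM of Mirt1 and 3.9 CPM of Olfr46, the highest of its group for both. In Ctsd cells at day 4 the values apart were all of low genes, namely 1.66 CPM of Mirt1 and 0.415 CPM of Ccn2 in replicate 2, 0.31 CPM of 9630001P10Rik in replicate 4, 0.541 CPM of Igfbp7 in replicate 5 and 0.335 CPM of Inhba in replicate 3.

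A difference of the Ctsd effect between the days was called for Ly6a, where the interaction term was -4.69 (adjusted p = 0.00436, edgeR). Replicate 5 of Rosa26 at day 13 is the library with the highest Ly6a value. Without it the call was lost, at -2.76 (adjusted p = 0.362, edgeR).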

How the results depend on the processing

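The fall of Ctsd kept its direction and its call in all alternatives, at -2.33 to -2.28 with 1 library left out. The number of calls depended more on the setting. For the common effect it was 92 with no count filter, 10 with at least 20 counts in 5 libraries, 11 with DESeq2, 13 with no protocol term, 5 in the 20 libraries alone, 9 in Regular and 48 in Low-input libraries alone (3 Ctsd and 1 Rosa26 library at day 13), 12 for an equal-weight mean of the days, 8 with a stromal term, and 8 without Rosa26 day 13 replicates 2 and 5, a setting chosen after seeing the data. Bgn then stood at 0.40, and at 0.35 with the stromal term. At day 4 it was 81 with no filter, 29 with DESeq2 and 4 with no protocol term. At day 13 it was 132 with no filter, 9 with the stricter filter, 13 with DESeq2, 6 in the compared groups alone, 2 in Regular libraries and 3 without those 2 replicates. For the difference it was 101 with no filter, 4 with DESeq2, 0 with no protocol term, 3 in the compared groups alone, 0 in Regular libraries and 3 without those replicates. Against Npc1 cells it was 201, 114 and 14 with no filter, DESeq2 and no protocol term. Against Pik3c3 and Grn cells it was 618 and 756 with no protocol term, and 892 for Grn in the compared groups alone. The cause of these shifts was not tested.

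With 1 library left out, calls ranged from 7 to 27 for the common effect, 5 to 19 at day 4, 3 to 28 at day 13 and 0 to 3 for the difference. They ranged from 26 to 78 against Npc1, 871 to 974 against Pik3c3 and 1101 to 1525 against Grn cells. The common effect had 7 calls without Rosa26 day 13 replicate 5, 12 without replicate 2 and 15 without Ctsd day 13 replicate 1.

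Deviations from the group mean, with protocol removed, correlated at -0.046 to 0.27 between same-numbered libraries. The same number was the best match for some libraries and not for others, so whether the numbers mark pairs was not settled. The main fits did not take them as pairs. With a replicate block there were 34 calls at day 4, 7 for the difference and 83 against Npc1 cells, and 22 of the 23 common calls were made. Genes under 1 CPM rest on at most 3 counts a library, which limits their precision.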

Other observations

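Members of further gene groups lay on both sides of 0, without a call by the main edgeR fits or by DESeq2. Immediate early genes, the first genes induced by a stimulus, had a median common change of -0.07 with 4 of 15 tested members above 0, and 5 had an unadjusted p under 0.05. At day 4 their median was -0.26, with 3 of 15 above 0 and 6 at an unadjusted p under 0.05. The median at day 13 was -0.02. Fits without 1 library aside, the other settings called at most 1 of them for the common effect and 3 at day 4. Genes of hypoxia and glycolysis had 19 of 22 tested members above 0, with a median of 0.07, and 3 had an unadjusted p under 0.05. MHC class I genes had 2 of 16 tested members above 0, with a median of -0.09. Those other settings called at most 1 MHC class I gene for the common effect and 2 at day 13. Mitochondrially encoded genes had a median of -0.01, and their values lay between -0.10 and 0.19.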
